A study of Homo sapiens with 5 samples.

Results

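Cadherin and catenin transcripts were followed across 5 established human pancreatic cell lines. The genes taken were CDH1, CDH2, CDH3, CDH17, CTNNA1, CTNNB1, CTNND1, PCDH1 and PCDH7, with every probe set annotated to 1 of these symbols alone. That gave 21 probe sets for 8 of the 9 genes, out of 19775 genes with such a probe set. CTNND1, which encodes p120-catenin, was left without a value, because its 4 probe sets also carry the symbol of a readthrough transcript. HPDE, L3.6, HPAF1, PANC1 and SU86.86 were the lines, with no treatment named, and with 1 one-colour Affymetrix array of total RNA for each line. The labels describe every one as a pancreatic cancer line. As background that the labels do not give, the 4 others derive from carcinomas, while HPDE cells are immortalised duct epithelium. Each line stands for 1 tumour or 1 duct culture, and no line was measured more than 1 time, so no level below carries an error of its own.

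Classical cadherins are calcium-dependent adhesion receptors that bind the same kind of cadherin on a neighbouring cell. Their cytoplasmic tails bind p120-catenin and beta-catenin, and alpha-catenin links beta-catenin to actin. E-cadherin, from CDH1, is the cadherin of epithelia, and a low E-cadherin level together with a high level of N-cadherin, from CDH2, is a widely used sign of a mesenchymal state in carcinoma cells. Beta-catenin outside the junction is also the transcriptional effector of WNT signalling. Protocadherins share the extracellular cadherin repeats but lack the catenin-binding tail.

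Intensities are given as deposited, and log2 levels and log2 differences after adding a constant of 71.1 intensity units. The level filter, the median of all probe sets, lies at an intensity of 140.3 or a log2 level of 7.72, and readings under it are treated as near background. A log2 difference from such a reading depends on the constant, so where the dimmer line is under the filter the text gives a lower bound instead, the intensity of the brighter line over that of the filter. Array medians lay between 137 and 143 intensity units. For 9 hybridisation controls the SD across the 5 arrays was 0.06 at the median and 0.11 at most (log2), a yardstick for hybridisation and scanning that leaves out differences between cultures. Of the 21 probe sets, 18 reached the filter on at least 1 array.

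CDH1 separated the lines into a high and a low set. On probe set 201131_s_at the intensity was 10281 in HPDE, 7588 in HPAF1 and 6736 in SU86.86, against 895 in L3.6 and 320.3 in PANC1. The second probe set, 201130_s_at, read 1852 in HPDE, 1259.6 in HPAF1 and 1247 in SU86.86, against 143 in L3.6 and 61.8 in PANC1. Both gave the same order of lines. The widest step lay between SU86.86 and L3.6, at 2.82 on the first probe set and 2.62 on the second as log2 differences. HPAF1 and SU86.86 were only 0.17 and 0.01 apart, and L3.6 exceeded PANC1 by 1.30 on the first. On the second, PANC1 was under the filter and L3.6 was only 1.02 times the filter intensity, so the step of 2.62 depends on the added constant. HPDE stood 32.1 times as high as PANC1 in intensity on the first probe set, with all 5 lines above the filter there. In RNA from a whole culture, fewer cells with the transcript and less transcript per cell cannot be told apart.

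Other epithelial transcripts, and 1 fibroblast transcript, also differed between these lines. EPCAM, an epithelial adhesion molecule, had its lowest log2 level in PANC1 at 10.80 and stood at 13.10 in L3.6 and 12.06 in HPDE. KRT19 was also lowest in PANC1, at 9.84 against 12.67 in HPDE. KRT8 and KRT18 were instead lowest in HPDE, at 11.29 and 13.23, against 11.98 and 13.77 in PANC1. The summed intensity of 4 epithelial markers was 20419 in PANC1 and 22619 in HPDE, and higher in the rest at 41580 (L3.6), 61879 (SU86.86) and 82368 (HPAF1), so HPDE, the line with the highest CDH1, was next to the bottom. The summed intensity of 6 fibroblast markers was 2955 in L3.6 and 2418 in PANC1, against 1606 to 1974 in the other lines. Among these 6, COL1A2, a collagen chain of fibroblasts, stood at a log2 level of 9.91 in L3.6 and under the filter elsewhere, PANC1 included. COL1A1 was the brightest of the 6 in PANC1, at 10.78, but it was above the filter in every line with a range of 0.73. DCN was above it in every line with a range of 0.34, while PDGFRB was under it in every line. The part of these markers in the CDH1 levels was not tested.

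CDH2 was above the filter in SU86.86 and PANC1 and near background in the rest. Probe set 203440_at read 2884 in SU86.86, 1488 in PANC1, 104 in L3.6, 66.4 in HPAF1 and 40.1 in HPDE. Probe set 203441_s_at read 779.5 in SU86.86, 344 in PANC1, 89.1 in L3.6, 69.8 in HPAF1 and 55.7 in HPDE. Both probe sets put SU86.86 above PANC1, and only SU86.86 and PANC1 lay above the filter. The order of the other 3 lines, though shared, is one of background readings. SU86.86 exceeded PANC1 by 0.92 and 1.04 as log2 differences. PANC1 was at least 10.6-fold above the 3 lines under the filter on the brighter probe set and at least 2.45-fold on the dimmer one. For SU86.86 these bounds were 20.6-fold and 5.55-fold.

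The CDH1 and CDH2 patterns were not mirror images. PANC1 combined the lowest CDH1 with a CDH2 signal. SU86.86 had the highest CDH2 of the 5 lines together with a CDH1 level 0.60 below HPDE on the log2 scale, on the brighter CDH1 probe set. L3.6 had a low CDH1 level and no CDH2 signal above the filter. HPAF1 and HPDE had high CDH1 and CDH2 readings near background.

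CDH3, which encodes P-cadherin of basal epithelial layers, was graded. Its single probe set, 203256_at, read 5840.35 in HPDE and 1718 in SU86.86, then 1095 in L3.6 and 1071 in HPAF1, and 104 in PANC1. HPDE stood 1.72 above SU86.86 as a log2 difference. L3.6 and HPAF1 were 0.03 apart. PANC1 was the only line under the filter, and HPAF1 was at least 7.63-fold above it. CDH3 and CDH1 are neighbouring protein-coding genes on chromosome 16 in the RefSeq annotation of GRCh38.p14. They did not have the same profile: L3.6 matched HPAF1 for CDH3 but lay 2.99 below it for CDH1.

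CDH17, the liver-intestine cadherin, was above the filter in HPAF1 alone among the 5 lines. Probe set 209847_at read 5887 there, 63.8 in L3.6, 63.3 in SU86.86, 59.8 in PANC1 and 56.1 in HPDE. The 4 other readings were all under the filter. CDH17 is a cadherin with a short cytoplasmic tail that does not bind catenins. HPAF1 was at least 42.0-fold above each of the 4 other lines.

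**Figure D1:**
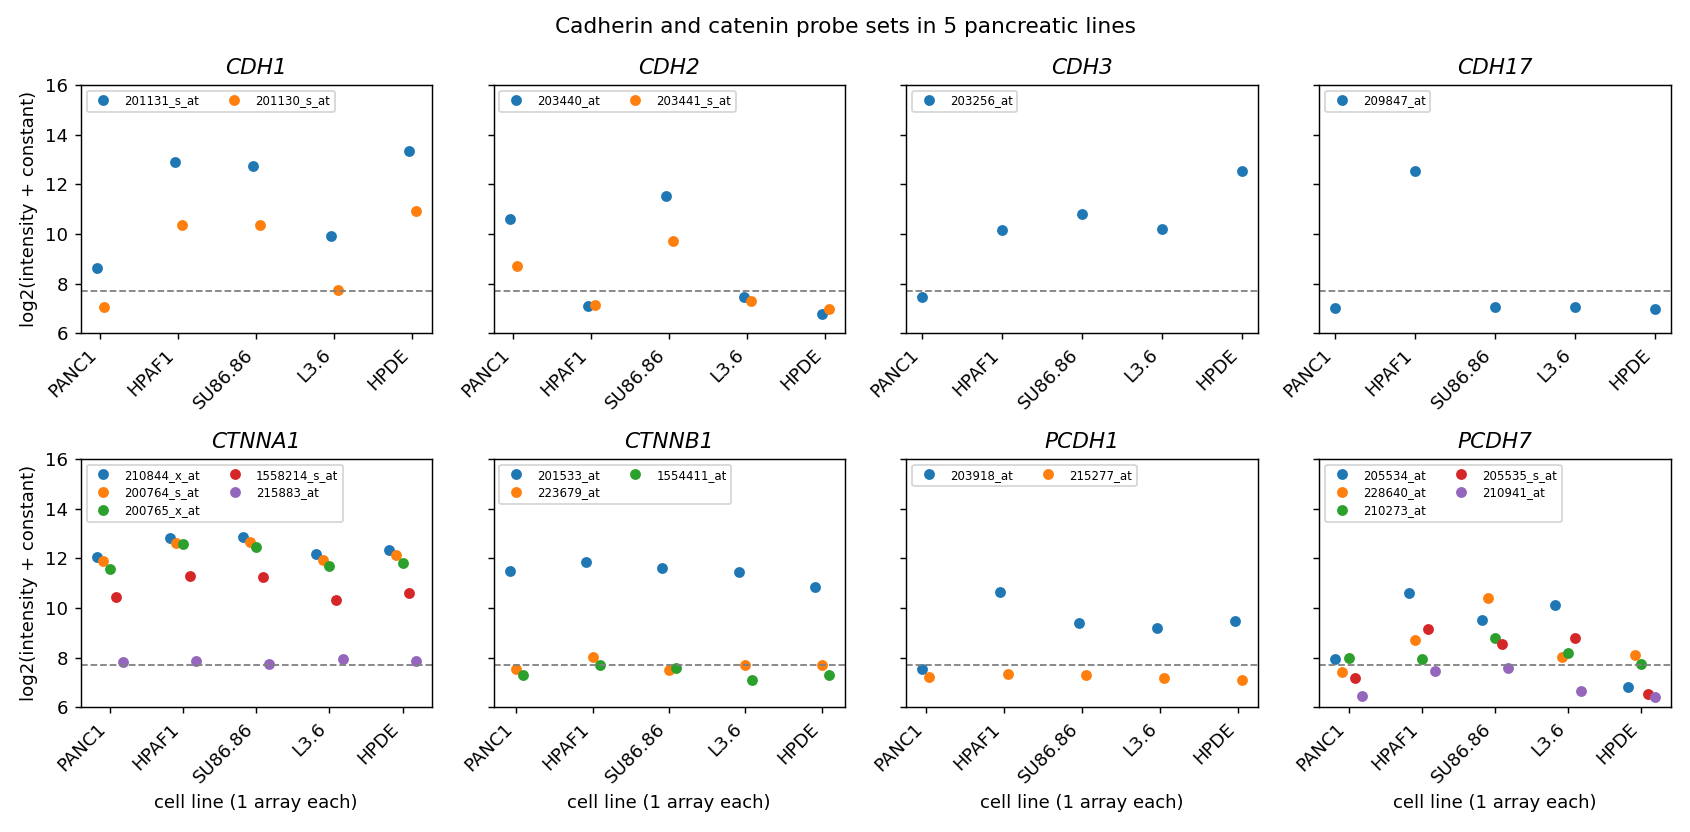
Log2 level (vertical axis, log2 of intensity plus 71.1) of every probe set of the 8 measured genes in the 5 lines (horizontal axis, 1 array each); colours are probe sets, and the dashed line is the level filter at 7.72. CDH1 is low in PANC1 and L3.6, CDH2 is above the filter in PANC1 and SU86.86 only, CDH17 in HPAF1 only, and the bright CTNNA1 and CTNNB1 probe sets are high in all 5 lines.

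The catenins were high in every line and had the narrowest ranges of the 8 genes. CTNNA1, which encodes alpha-catenin of epithelial junctions, read 7446 in SU86.86 and 7178 in HPAF1, then 5061 in HPDE and, lowest, 4492 in L3.6 and 4179 in PANC1 on its brightest probe set, 210844_x_at. SU86.86 and HPAF1 were the 2 highest lines on 4 of its 5 probe sets, and the lower of the pair exceeded HPDE, the next line, by 0.50 to 0.65 on the log2 scale. PANC1 and L3.6 were the 2 lowest on those 4. The fifth probe set, 215883_at, read between 144 and 179 in all lines, close to the filter, with SU86.86 lowest. The whole range of CTNNA1 on the brightest probe set was 0.82, under 2-fold.

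CTNNB1, which encodes beta-catenin, read 3595 in HPAF1, 3060.3 in SU86.86, 2795 in PANC1, 2752 in L3.6 and 1746 in HPDE on probe set 201533_at. The 4 carcinoma lines lay above HPDE by 0.64 to 1.01 as log2 differences, and PANC1 and L3.6 were 0.02 apart. The other probe sets, 223679_at and 1554411_at, read between 68.3 and 187 in all lines, with HPAF1 highest and HPDE in the middle of the order on both. The lowest place of HPDE thus rests on 1 of 3 probe sets, the only one well above the filter. On 201533_at the 2 lines with low CDH1, PANC1 and L3.6, did not have the lowest CTNNB1. On 1554411_at, which was under the filter in every line, they were the 2 lowest, at 85.0 and 68.3.

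PCDH1, a protocadherin of airway and other epithelia, was high in HPAF1 and low in PANC1. Probe set 203918_at read 1534 in HPAF1 and 117 in PANC1, with 643 in HPDE, 609.7 in SU86.86 and 521 in L3.6 between them. HPDE, SU86.86 and L3.6 formed a close group, with log2 steps of 0.07 and 0.20 between neighbours. HPAF1 stood 1.17 above HPDE, and PANC1 was under the filter, with L3.6 at least 3.71-fold above it. The second probe set, 215277_at, stayed between 66.7 and 91.1 in all lines and never reached the filter.

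PCDH7, whose encoded protocadherin binds a phosphatase through its cytoplasmic region, gave different orders on different probe sets. Probe set 205534_at read 1493 in HPAF1, 1053 in L3.6, 672 in SU86.86, 177 in PANC1 and 41.3 in HPDE. Probe set 205535_s_at, annotated to the same RefSeq transcript, repeated that order with 497 in HPAF1, 374 in L3.6, 301 in SU86.86, 73.3 in PANC1 and 23.3 in HPDE. On both, HPDE was lowest and HPAF1, L3.6 and SU86.86 were at most 1.07 apart on the log2 scale. PANC1 and HPDE were both under the filter on 205535_s_at, so their order there is one of background readings.

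The remaining PCDH7 probe sets put SU86.86 first. Probe set 228640_at read 1282 in SU86.86 and 353 in HPAF1, then 208 in HPDE and 189.6 in L3.6, and 103 in PANC1, the lowest line. Probe set 210273_at read 377 in SU86.86 and 143 to 224 in the other lines. Probe set 210941_at read 123 in SU86.86 and 106 in HPAF1, both under the filter, and 14.1 to 30.5 elsewhere. These 2 are annotated to other PCDH7 sequence accessions than the first pair. All 5 PCDH7 probe sets placed SU86.86 above HPDE, though 210941_at was under the filter in both. L3.6 was at least 7.50-fold above HPDE on 205534_at and 0.912 times HPDE on 228640_at.

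**Figure D2:**
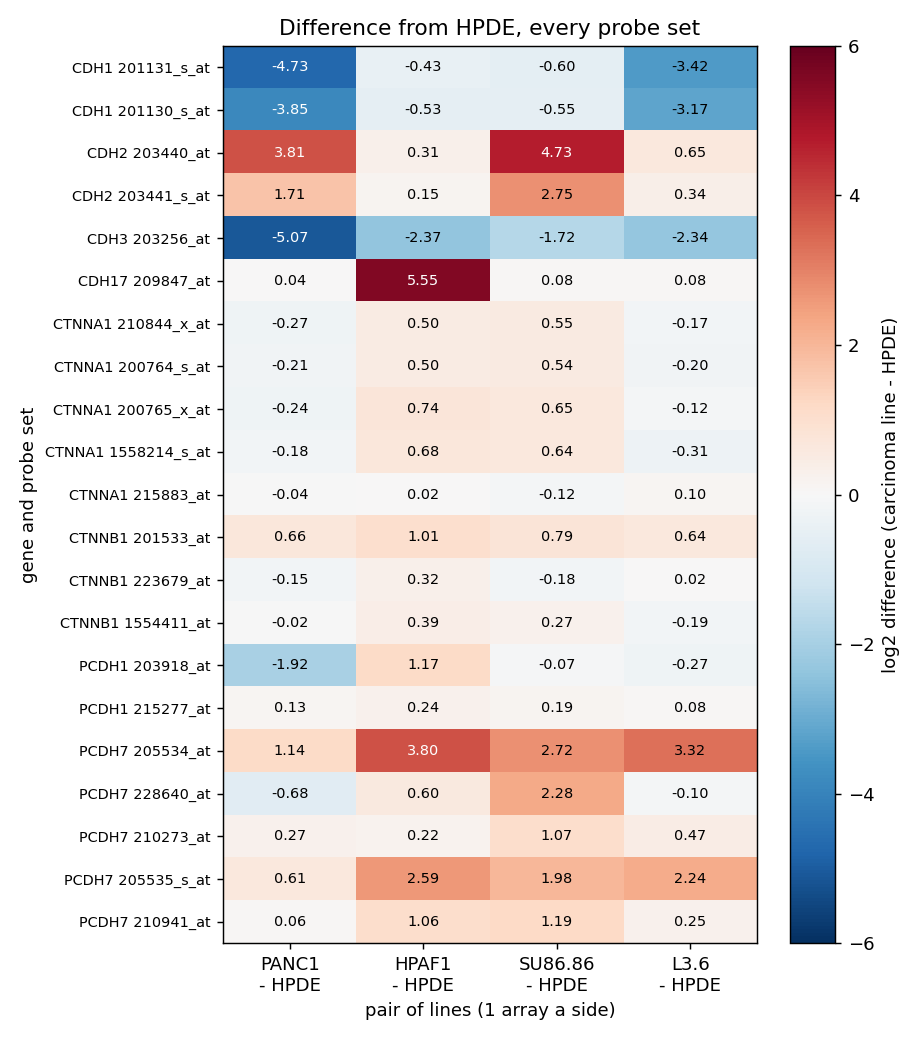
Log2 difference (colour and printed value) of each carcinoma line minus HPDE (columns, 1 array a side) for every probe set (rows). CDH3 is lower than HPDE in all 4 lines, CDH1 on 201131_s_at differs by -4.73 in PANC1 and -3.42 in L3.6, and the PCDH7 probe sets differ among themselves; values where either line is under the filter (such as all of CDH2, CDH17 and 205534_at) depend on the added constant.

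Upstream sequence is shown as a description of CpG content in genes whose ranges over the lines differ. Windows from RefSeq for GRCh38.p14 were used for CDH2, CTNNA1, CTNNB1, PCDH1 and PCDH7, 5 of the 9 genes, and the upstream sequence of the other 4 was not analysed here. The 250 bases before a start are shown for 4 of them, 5′ to 3′ on the gene's strand, with CpG dinucleotides in capitals. The CTNNB1 window (chr3:41199255-41199504, plus strand) is shown for a catenin, with a range of 1.01, and the windows of CDH2 (chr18:28177131-28177380, minus strand, the outer of its 2 starts), PCDH1 (chr5:141869628-141869877, minus strand) and PCDH7 (chr4:30720119-30720368, plus strand) for genes with ranges of 3.09 or more.
CTNNB1: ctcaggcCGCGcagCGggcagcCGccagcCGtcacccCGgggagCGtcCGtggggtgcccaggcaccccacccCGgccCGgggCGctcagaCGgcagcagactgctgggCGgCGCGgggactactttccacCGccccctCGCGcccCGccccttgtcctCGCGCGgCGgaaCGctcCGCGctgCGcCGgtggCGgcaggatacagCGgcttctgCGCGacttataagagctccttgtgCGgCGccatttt
CDH2: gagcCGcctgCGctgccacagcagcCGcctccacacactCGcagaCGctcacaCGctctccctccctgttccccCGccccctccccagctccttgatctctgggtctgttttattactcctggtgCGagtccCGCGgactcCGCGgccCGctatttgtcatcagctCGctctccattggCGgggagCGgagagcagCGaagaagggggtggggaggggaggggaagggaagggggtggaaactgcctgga
PCDH1: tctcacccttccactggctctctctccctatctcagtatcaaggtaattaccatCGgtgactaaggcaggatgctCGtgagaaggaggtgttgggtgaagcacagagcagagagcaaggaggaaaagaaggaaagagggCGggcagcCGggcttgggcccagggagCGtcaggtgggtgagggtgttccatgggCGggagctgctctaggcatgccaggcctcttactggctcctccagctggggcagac
PCDH7: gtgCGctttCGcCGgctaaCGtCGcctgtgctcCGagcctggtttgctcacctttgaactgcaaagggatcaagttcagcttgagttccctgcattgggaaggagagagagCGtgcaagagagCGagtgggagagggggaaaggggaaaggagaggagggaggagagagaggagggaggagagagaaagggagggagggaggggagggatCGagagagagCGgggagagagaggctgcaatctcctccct

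The CTNNB1 window holds 34 CpG dinucleotides, a number met by 6.84% of all 35116 windows of this length. The CDH2 window holds 17, met by 39% of windows, PCDH7 10, met by 52.2%, and PCDH1 6, met by 61.9%. The inner CDH2 start has 4. CTNNA1 has 4 starts, of which the outer pair hold 33 and 39 and the inner pair 3 and 8. The 6-letter E-box CAGGTG, the kind bound by the SNAIL and ZEB repressors of CDH1, was searched on both strands. It occurs 1 time in the PCDH1 window, beginning 81 bases before the start, and in no other window of these 5 genes, against 17.5% of all windows. A match or its absence describes these letters in this window only.

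Read against all genes, 6 of the 8 measured genes had wide ranges over the lines. One probe set per gene, the one with the highest mean, was used for this and for the comparisons that follow, and all 8 genes were among the 14894 that reached the filter. CDH17 reached it through HPAF1 alone and CDH2 through SU86.86 and PANC1 alone, so counts over these genes describe them and support nothing further. The range from the highest to the lowest line was 5.55 for CDH17, 5.07 for CDH3, 4.73 for CDH2 and 4.73 for CDH1 on the log2 scale. It was 3.80 for PCDH7 and 3.09 for PCDH1, but 1.01 for CTNNB1 and 0.82 for CTNNA1. The lowest line was under the filter for CDH17, CDH3, CDH2, PCDH7 and PCDH1, so their ranges depend on the added constant. A range of 2-fold or more was found for 7 of the 8 genes and for 42.4% of all genes tested. The median range was 4.26 for the 8 genes and 0.85 for all genes. The 4 cadherins lay between the 99.1 and the 99.7 percentile of all ranges, CTNNB1 at the 58.1 and CTNNA1 at the 48.7.

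**Figure D3:**
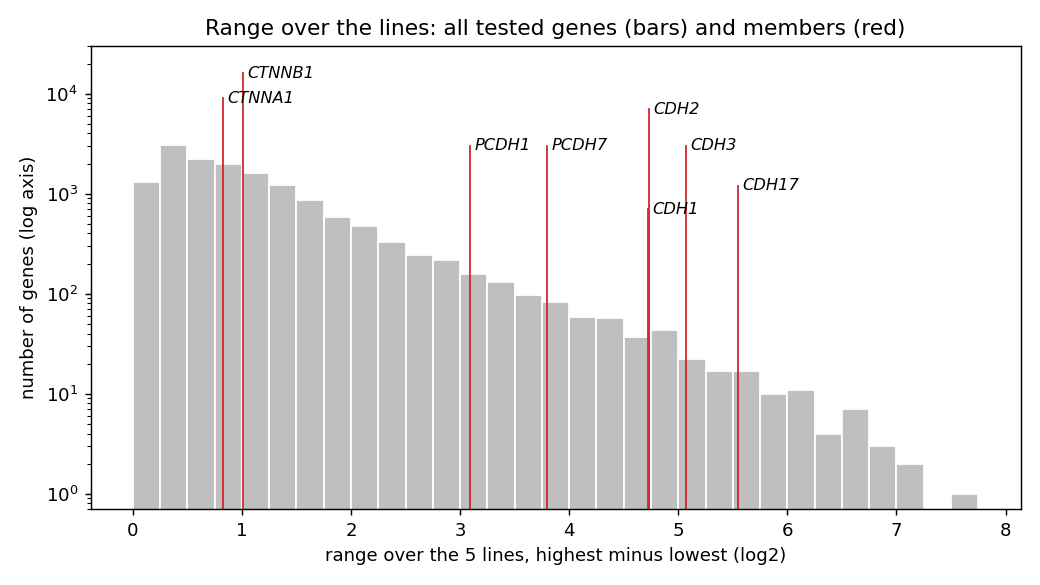
Number of genes (vertical axis, log scale) by range over the 5 lines (horizontal axis, log2), with the 14894 tested genes as grey bars and the 8 measured genes as red lines whose heights only separate the names. CTNNA1 at 0.82 and CTNNB1 at 1.01 lie in the bulk, and CDH1, CDH2, CDH3 and CDH17 lie at 4.73 or more.

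Each carcinoma line was then set against HPDE, counting differences of 2-fold or more in either direction. With 1 array a side these are sizes with no replicate check, and the 4 comparisons share the HPDE array. PANC1 differed from HPDE for 5 of the 8 genes, against 17.7% of all genes. CDH2 (at least 10.6-fold) and PCDH7 (at least 1.26-fold, 4.28 as the plain intensity ratio) were higher. The bound for PCDH7 is short of 2-fold, so its place in this count rests on a background reading of HPDE. On 210273_at, with both lines above the filter, PANC1 was 1.30 times HPDE for PCDH7. On 228640_at, with PANC1 under the filter, PANC1 was 0.493 times HPDE. On 205535_s_at and 210941_at, with both lines under the filter, PANC1 was 3.15 and 1.25 times HPDE. CDH1 (-4.73 as a log2 difference) was lower, and so were CDH3 and PCDH1, for which HPDE was at least 41.6-fold and 4.58-fold above PANC1. HPAF1 also differed for 5, against 17% of all genes, with CDH17 (at least 42.0-fold), PCDH7 (at least 10.6-fold), PCDH1 (1.17) and CTNNB1 (1.01) higher and CDH3 (-2.37) lower. SU86.86 differed for 3, against 16.2%, with CDH2 (at least 20.6-fold) and PCDH7 (at least 4.79-fold) higher and CDH3 (-1.72) lower. L3.6 differed for 3, against 15.1%, with PCDH7 (at least 7.50-fold) higher and CDH1 (-3.42) and CDH3 (-2.34) lower. CDH3 was thus lower than in HPDE in every carcinoma line on its probe set, and PCDH7 higher on the probe set used. With the mean of a gene's probe sets in place of the brightest, PANC1 and HPAF1 each differed for 3 genes, and CTNNB1 was not among those of HPAF1. CTNNB1 in HPAF1 also fell below 2-fold with arrays scaled to a common median, which left 4 genes.

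Among the carcinoma lines, PANC1 and HPAF1 parted on the most of these genes. They differed for 6 of 8, against 19.6% of all genes, with CDH2 higher in PANC1 and CDH1, CDH3, CDH17, PCDH1 and PCDH7 higher in HPAF1. PANC1 and L3.6 differed for 5, against 11.4%, again with CDH2 higher in PANC1 and CDH1, CDH3, PCDH1 and PCDH7 higher in L3.6. PANC1 and SU86.86 differed for 4, against 12.4%, all higher in SU86.86: CDH1, CDH3, PCDH1 and PCDH7. HPAF1 and SU86.86 differed for 4, against 16%, with CDH17, PCDH1 and PCDH7 higher in HPAF1 and CDH2 higher in SU86.86. HPAF1 exceeded L3.6 for CDH1, CDH17 and PCDH1, 3 genes against 16.8% of all. SU86.86 exceeded L3.6 for CDH1 and CDH2, 2 genes against 10.6% of all, the fewest of the 10 pairs. With the mean of a gene's probe sets, PANC1 and L3.6 differed for 2 genes (CDH2 and CDH3), HPAF1 and SU86.86 for 2 and HPAF1 and L3.6 for 2. SU86.86 and L3.6 still differed for 2, so the fewest was then shared, and PANC1 and SU86.86 differed for 3.

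The fit with limma, each line against the mean of the other 4, called 1 of these genes in HPAF1, where 0.242% of all genes were called. It was CDH17, with a difference of 5.50 (SE 0.17, limma adjusted p = 0.0079). CDH17 entered the fit only through the single HPAF1 array. The SE is limma's moderated one, drawn from 4 background readings and from the variances of all genes. The call therefore supports nothing beyond the intensities above. With any of these 4 lines left out the limma adjusted p lay between 0.054 and 0.120, and over all alternatives between 0.0012 and 0.120. In PANC1 and in HPDE 0 of the 8 genes were called, against 0.0269% of all genes in each, and in SU86.86 and L3.6 0 were called, against 0% of all genes. At an unadjusted p under 0.05 limma gave CDH3 (-3.46, SE 1.00) and PCDH1 (-2.13, SE 0.61) in PANC1, and CTNNB1 (-0.77, SE 0.23) and PCDH7 (-2.75, SE 1.05) in HPDE. Their limma adjusted p values were 0.69, 0.68, 0.51 and 0.61. CDH3 and PCDH1 in PANC1 and PCDH7 in HPDE are themselves readings under the filter. Of all genes 5.56% in PANC1 and 8.23% in HPDE had such an unadjusted p. In SU86.86 and L3.6 0 of the 8 had an unadjusted p under 0.05, while 3.74% and 3.37% of all genes did. CDH1 in PANC1 differed from the mean of the other lines by -3.61 (SE 1.39, limma adjusted p = 0.90), with L3.6 among those lines. These p-values measure the spread between lines, which may be unlike the spread between cultures of 1 line.

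Genes with the profile most like each cadherin were found by the mean absolute log2 difference over the 5 lines, after each gene was centred on its own mean. For CDH1 the nearest were TMEM154 at 0.15, GBP1, an interferon-induced GTPase, at 0.45 and LAD1, a basement membrane filament protein, at 0.49, where the median over all genes was 1.80. TMEM154 stood at log2 levels of 11.23 in HPDE, 10.88 in HPAF1 and 10.29 in SU86.86, against 7.75 in L3.6 and 6.74 in PANC1. In PANC1, TMEM154, GBP1 (6.86) and LAD1 (7.26) were all under the filter, so that part of their closeness is one of background readings. For CDH2 they were AFAP1-AS1 at 0.42, the endothelial junction gene JCAD at 0.47 and COXFA4L3 at 0.50 (median 1.91). AFAP1-AS1 reached 10.58 in SU86.86 and 9.97 in PANC1 and at most 7.22 elsewhere. JCAD was at most 6.73 outside SU86.86 and PANC1. Like CDH2, AFAP1-AS1 and JCAD passed the filter through SU86.86 and PANC1 alone, so their closeness rests on those arrays and on background readings. For CDH3 they were the protease inhibitor SLPI at 0.24, COBLL1 at 0.36 and the small GTPase RAB38 at 0.37 (median 1.24). For CDH17 they were the keratin KRT20 at 0.11, the galectin LGALS4 at 0.13 and the annexin ANXA10 at 0.22 (median 1.76). KRT20 and LGALS4 stood at 12.10 and 12.71 in HPAF1 and at most 6.88 and 7.48 elsewhere, under the filter. Like CDH17, they passed the filter through the HPAF1 array alone, so their closeness rests on that array and on background readings. ANXA10 stood at 12.90 in HPAF1 and at most 8.02 elsewhere. Among the 8 genes themselves, the nearest to CDH1 was CDH3 at 0.85, then PCDH1 at 1.09, and the farthest was CDH2 at 2.69. These are descriptions over 5 arrays.

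Other junction genes were taken from 5 lists, with 60 genes tested. By limma 0 of the 60 were called in any line in either direction, while an unadjusted p under 0.05 was found for 5 in HPDE, 4 in PANC1, 3 each in HPAF1 and SU86.86, and 2 in L3.6. Over all genes the shares with such a p were 10.1% in HPAF1, 8.23% in HPDE and 5.56% in PANC1, with L3.6 at 3.37% and SU86.86 at 3.74%. The ranges of the list genes are read against the 42.4% of all genes with 2-fold or more and the median range of 0.85. Of 8 other catenin and armadillo genes, 2 (25%, against 42.4% of all genes) ranged over 2-fold or more, with a median range of 0.48. JUP, which encodes plakoglobin and can take the place of beta-catenin at cadherin tails, stood at 12.03 in HPDE, 11.78 in HPAF1 and 11.40 in SU86.86, then 10.41 in L3.6 and 9.84 in PANC1, the order of lines seen for CDH1. CTNNAL1, a relative of alpha-catenin, was at 9.16 in HPDE and 11.11 to 11.55 elsewhere. CTNNBIP1, an inhibitor of beta-catenin, and CTNNBL1 had ranges of 0.86 and 0.64.

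Of 15 nectins and adherens junction linkers 12 (80%, against 42.4% of all genes) ranged over 2-fold or more, with a median range of 1.67. SSX2IP, which encodes an afadin-binding protein, was highest in PANC1 at 10.89 and lowest in HPAF1 at 8.17. NECTIN3, a nectin, stood at 9.84 in SU86.86 and 7.20 in PANC1, LMO7, an afadin-binding adaptor, at 10.48 in HPAF1 and 7.88 in PANC1, and LIMA1, which links alpha-catenin to actin, at 13.25 in HPAF1 and 10.89 in PANC1. Of 13 genes of cadherin turnover 6 ranged that widely, a share of 46.2% that is near the 42.4% of all genes, with a median range of 0.99. MMP7, a protease that sheds E-cadherin, was at 13.30 in HPAF1, 10.05 in SU86.86 and at most 7.58 in the other lines. The receptor phosphatases PTPRK and PTPRF were highest in SU86.86, at 11.93 and 11.73, and the kinase FER was lowest in L3.6 at 8.83.

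The other cadherins had narrow ranges, at levels near the filter. Those that reached it stood between log2 levels of 7.34 (CDH7 in SU86.86) and 8.86 (CDH24 in HPAF1). The added constant narrows differences at such levels, so even expression cannot be read from these ranges. Of 10 that reached the filter, 0 ranged over 2-fold, against 42.4% of all genes, with a median range of 0.34, and the widest was CDH7 at 0.54, ahead of CDH8 (0.46), CDH11 (0.41) and CDH24 (0.36). CDH5, the endothelial cadherin, was under the filter in every line. Of 14 protocadherins and cadherin-like genes 6 ranged over 2-fold or more, and at 42.9% this share is that of all genes, with a median range of 0.74. FAT2, a giant cadherin of squamous epithelium, was at 9.51 in HPDE, 9.11 in L3.6 and at most 7.25 elsewhere. FAT1 was highest in HPAF1 at 12.72, CELSR2 in HPDE at 9.39 and PCDH9 in PANC1 at 8.75.

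**Figure D4:**
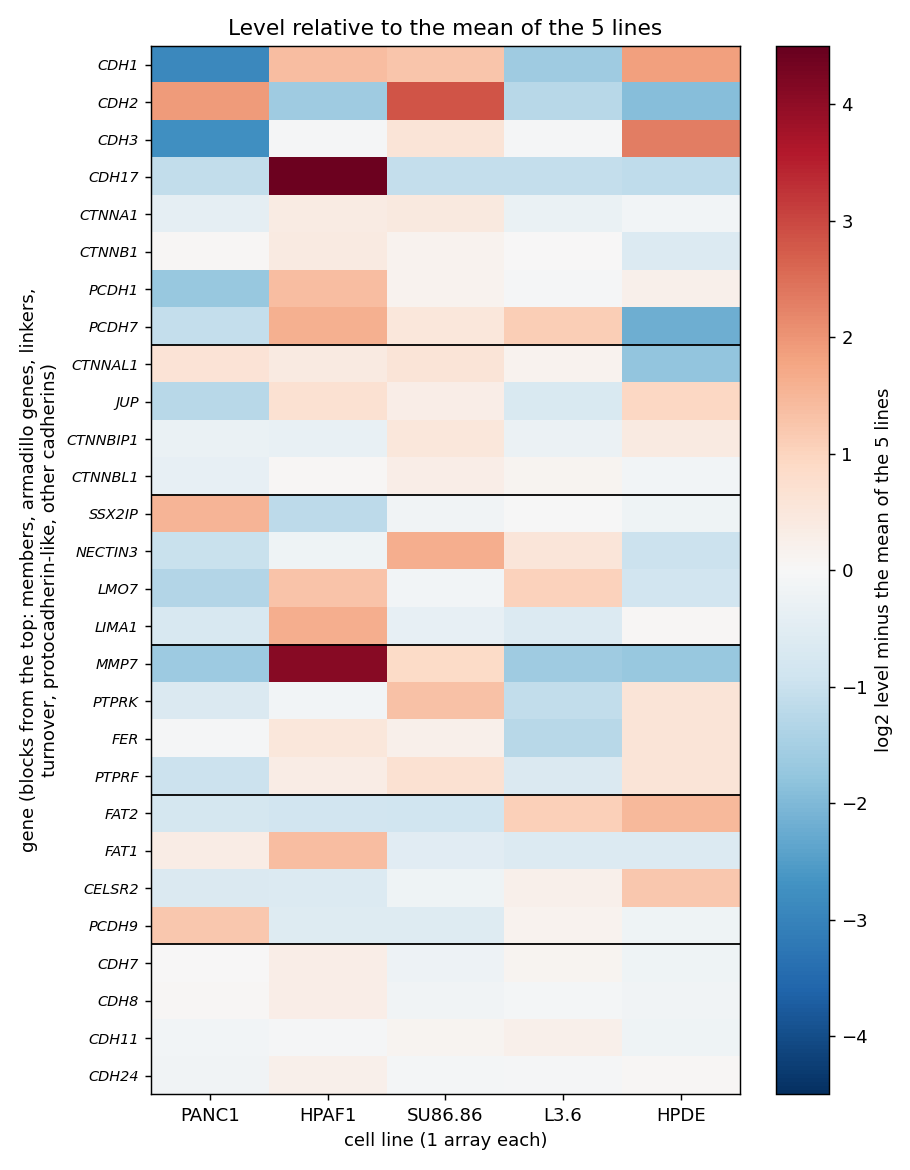
Log2 level minus the mean of the 5 lines (colour) in each line (columns, 1 array each) for the 8 measured genes and, below them, the 4 genes of each list with the widest range (rows; black lines part the lists). JUP is lowest in PANC1 (9.84) and highest in HPDE (12.03) as CDH1 is, and the other cadherins in the bottom block, with levels near the filter, range over at most 0.54.

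Markers of the labelled tissue were checked. KRT8, KRT18, KRT19 and EPCAM were above the filter in all 5 lines. Of 5 duct genes measured, SOX9 and MUC1 were above it in all 5 lines. SOX9 stood at 11.36 in PANC1 and was lowest in HPDE at 7.92. CA2 was above it in every line but L3.6, where it stood at 6.55. KRT7, a duct keratin, was under it in PANC1 at 7.51, and CFTR reached it only in SU86.86 at 7.74. The acinar genes PNLIP, CELA3A and CPA1 stayed under the filter in every line. Of 4 endocrine genes INS, GCG and SST did so, while CHGA stood between 7.98 and 8.35. Of 3 leukocyte genes PTPRC did so, while CD3E stood between 7.75 and 8.01, and CD14 reached the filter in HPAF1 alone, at 8.72. Of 4 endothelial genes VWF, KDR and CDH5 did so, while PECAM1 stood between 8.96 and 9.53.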

How the data were processed

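Total RNA of 5 lines, 1 array each, was labelled with a single-cycle kit, per the labels' protocols. The authors' deposited values are intensities on a linear scale, 54675 probe sets an array. The summarisation, scaling and background correction behind them are not given in the sources used here, and no detection calls were used. The array medians lay 0.04 apart on the log2 scale, under the 0.25 set as the limit for rescaling, so values were left as deposited. They were transformed as log2(intensity + 71.1), the 25th percentile of positive values, which narrows differences of dim genes. Of the probe sets 41091 carried 1 symbol, 1801 several, 11721 none and 62 were controls. Symbols were updated through Entrez IDs and RefSeq (GRCh38.p14). One probe set per gene (highest mean) was kept for 19775 genes, and 14894 reached the median level. limma 3.58.1 in R 4.3.3 was fitted to all of these (two-sided, 3 residual degrees of freedom, Benjamini-Hochberg, threshold 0.05) and checked on simulated data. Names ending in _x_at or _s_at mark probe sets that may match several transcripts. Members and lists were chosen with earlier results of these data known. The named genes were all members, the 3 nearest profiles of each cadherin, and the 4 widest-ranging genes of each list. Alternatives varied the constant, scaling, probe set choice, filter, fit and lines.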

Additional observations from a re-analysis of the deposited data

How the results depend on the processing

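The call of CDH17 in HPAF1, set against background readings, says nothing about stability under any alternative. The count of member genes called in HPAF1 was 0 to 0 with a line left out, against 1 with all lines, and limma then called 0 genes of the whole table, with 1331 to 1991 at an unadjusted p under 0.05. These fits have fewer lines. With the mean of all probe sets, which dilutes a bright probe set with dim ones, the count of genes 2-fold apart was 3 for PANC1 minus HPDE, 3 for HPAF1 minus HPDE, 2 for PANC1 minus L3.6 and 2 for HPAF1 minus SU86.86. CTNNA1 in SU86.86, 0.54 above the other lines, was -0.14 with probe sets ending in neither _x_at nor _s_at, which leaves the dim 215883_at. Of 84 probe set differences from HPDE, 27 were 2-fold or more; 27 of these were so with the constant at 16, with no constant and with quantile normalization, and 26 with arrays scaled to a common median, with 0 changes of sign. The numbers of such differences were then 29, 31, 27 and 26. No paired analysis was possible because each line has 1 array and the labels give no replicate numbers. Readings near background limit what can be read: CDH17 in HPAF1 minus HPDE was 5.55, but 6.71 with no constant, and CDH2 in SU86.86 minus HPDE 4.73, but 6.17.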
